A study of Homo sapiens with 6 samples.

Results

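The factors that start and drive protein synthesis were followed in 143B cells, a human osteosarcoma line, with and without CNTNAP4. They were taken by symbol from the deposited table of log2 signals: the initiation factors EIF1 to EIF6 with all their subunits and paralogues, the elongation factors EEF1A1, EEF1B2, EEF1D, EEF1G and EEF2, the kinase EEF2K, and the poly(A) tail proteins PABPC1, PABPC4, PAIP1 and PAIP2. The rule took 139 of the 54308 rows. Of these, 77 are pseudogene symbols without a value in any library, and 62 are factor genes. Among the 62, EIF4E1B had a value in VC replicate 1 alone and EIF4EBP3 in KO replicate 3 alone, so 60 were tested, 59 of them on values from all 6 libraries. The EIF2AK kinases were left out by the rule and are described with the rest of the pathway.

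The vector control (VC) cells had received a control plasmid, and the CNTNAP4 knockout (KO) cells a plasmid with a guide RNA, Cas9 and a red fluorescent protein, both by transient transfection for 48 h by the labels and for longer by the study's methods. Red cells were then sorted singly, the KO cells were expanded from 2 single-cell colonies, and which colony each library came from is not given in the sources used here. All 6 libraries therefore share the line, the medium with fetal bovine serum and the transfection, and a group differs from the other by its plasmid and by its clones, which cannot be told apart. Each group had 3 libraries of separately prepared RNA.

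Translation of most mRNAs starts when the eIF4F complex (the cap-binding protein eIF4E, the scaffold eIF4G and the helicase eIF4A) binds the 5′ cap and, through eIF4G, the poly(A)-binding protein. The small ribosomal subunit arrives with eIF3, eIF1, eIF1A, eIF5 and the ternary complex of eIF2, GTP and initiator tRNA, and scans to the start codon. Growth signals act on the first step through TORC1, which holds the eIF4E inhibitors EIF4EBP1 and EIF4EBP2 in check, and stress acts on the second through phosphorylation of the eIF2 alpha subunit. Many mRNAs of the translation machinery, with those of EEF1A1, EEF2 and PABPC1 among the classical examples, begin with a C followed by a run of pyrimidines, the 5′ terminal oligopyrimidine (TOP) motif, through which TORC1 controls their translation and stability.

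CNTNAP4 itself had a value in a single library, VC replicate 3, at a log2 signal of -7.18, near the lower end of the table, so the target could not be compared between the groups in these signals. The study checked the deletion in its KO clones by qRT-PCR, western blot and an endonuclease assay. Of the osteoblast and osteosarcoma markers, VIM lay between 10.33 and 10.93, SPARC between 6.46 and 6.95 and RUNX2 between 1.3 and 1.69 in the 6 libraries, whereas SP7 had no signal above -6.52 and IBSP had no value. The signals had been brought to the same distribution in every library (median 0.62, highest value 12.04), the read counts are unknown, and over the 17698 genes with 6 values the replicates correlated at 0.99 to 0.992 in VC and 0.985 to 0.99 in KO, against 0.964 to 0.981 between the groups. The signals are relative to the other genes of a library, so fewer transcripts per cell and fewer transcribing cells cannot be told apart.

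CNTNAP4 KO cells differed from VC in both directions within this machinery. By limma over 19306 genes, 26 of the 60 tested factors passed an adjusted p of 0.05, 10 higher and 16 lower in KO. Those are 43.3%, 16.7% and 26.7% of the factors. With the libraries centred on their medians over the 17698 genes with 6 values, the split was 14 higher and 13 lower. Over all genes it was 3005 and 3233 in place of 2526 and 3828. Over all genes 32.9% were called, 13.1% higher and 19.8% lower. In the fit on genes in the upper 50% of mean signal, 36 of 55 factors (65.5%) were called beside 59.1% of genes. The median log2 fold change of the factors, -0.13, was that of all genes, -0.13. In 45 of 59 factors (76.3%) the 3 KO values lay wholly outside the 3 VC values, above them in 18 and below them in 27, beside 59.3% of genes with such a gap over the whole table.

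**Figure D1:**
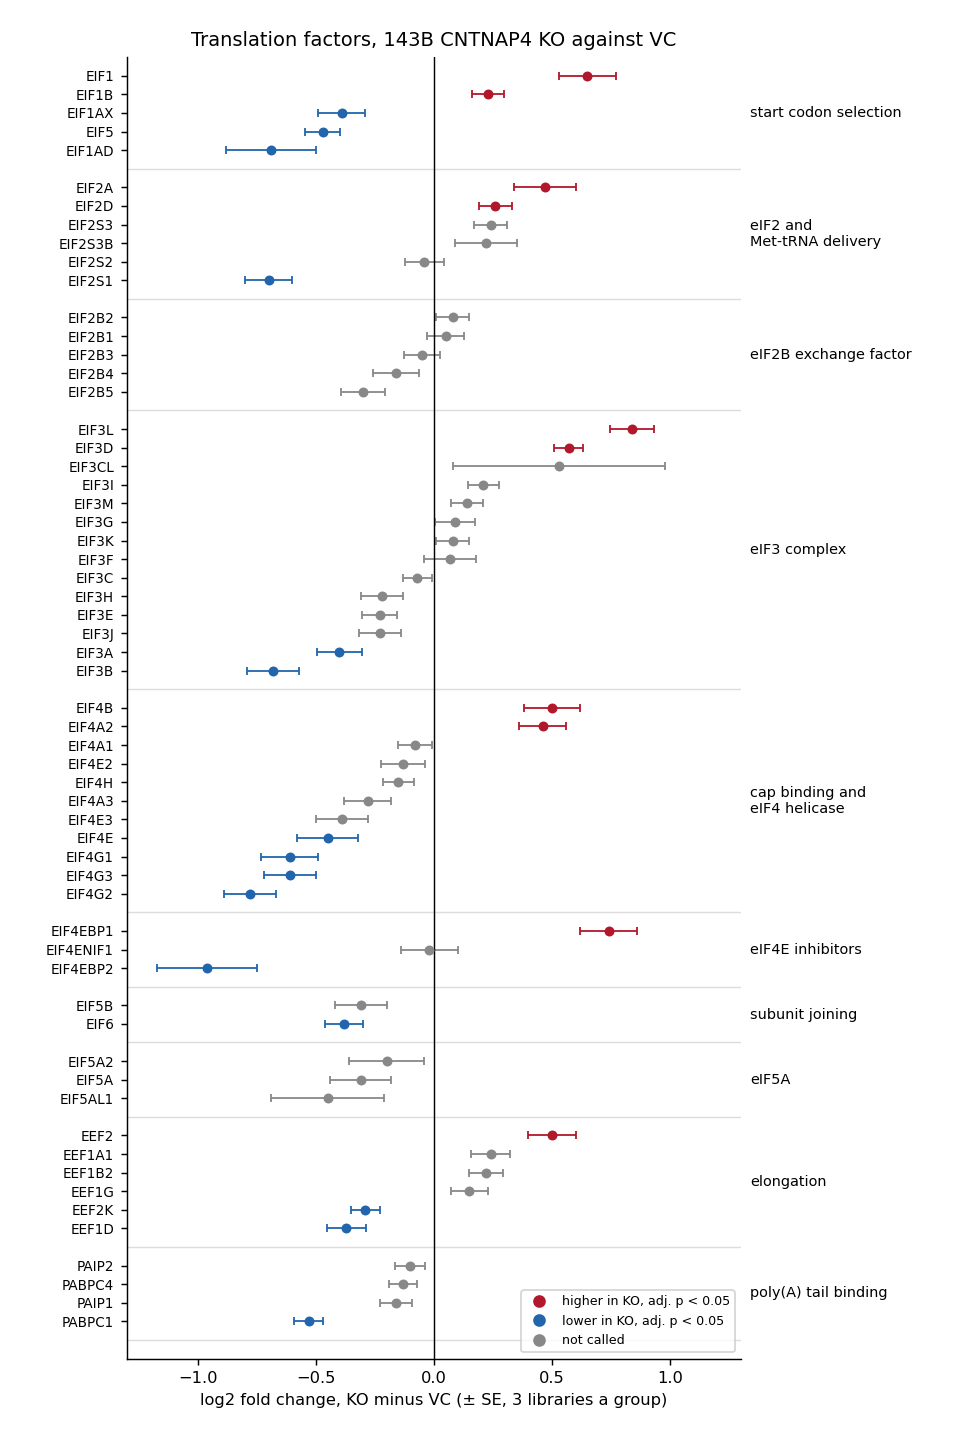
Each point is the log2 fold change (KO minus VC) of 1 factor with its standard error from limma, 3 libraries a group, on the horizontal axis, with the factors grouped by role on the vertical axis. Every role with more than 3 factors except poly(A) tail binding holds factors on both sides of 0, and the range runs from -0.96 for EIF4EBP2 to 0.84 for EIF3L.

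The changes were modest, under 2-fold for each of these 59 factors, and the number of calls depended on the libraries. Leaving out VC replicate 1, 2 or 3 left 6, 10 or 3 called factors, and leaving out KO replicate 1, 2 or 3 left 31, 18 or 7, those without KO replicate 1 holding all 25 called factors that could be tested there. The called factors kept their direction in each of these fits, and EIF3D, EIF3L and PABPC1 passed in all 6 of them. The KO libraries were also unequal: KO replicate 1 was the KO library nearest to the VC mean in 24 of the 25 called factors with 6 values (96%), as it was in 74.3% of all such genes called.

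The first bases of the transcripts were read beside the direction of change. RefSeq start windows (GRCh38.p14) were listed for 49 of the 60 tested factors, and 13 of these (26.5%) have a listed start at which the first base is C and at least 4 further C or T follow. This was read on the transcribed strand at the start base only. The same holds for 4.07% of all 35116 start windows and 6.87% of the 13441 tested genes with one. Shown here are 5 of the factors that rose (EEF2, EIF4B, EIF4A2, EIF2A and EIF3D) and 3 that did not pass the test, to show the run that is more frequent among the factors than among other genes. Each is given as 10 bases before and 20 bases from the start, with the C and its pyrimidine run in capitals.
EEF1A1 (chr6:73521013-73521042, minus strand): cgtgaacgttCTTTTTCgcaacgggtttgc
EEF2 (chr19:3985444-3985473, minus strand): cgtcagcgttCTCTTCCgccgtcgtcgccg
EIF4B (chr12:53006446-53006475, plus strand): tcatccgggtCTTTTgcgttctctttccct
EIF4A2 (chr3:186783567-186783596, plus strand): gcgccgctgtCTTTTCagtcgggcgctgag
EIF2A (chr3:150546777-150546806, plus strand): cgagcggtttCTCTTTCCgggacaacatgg
EIF3D (chr22:36529147-36529176, minus strand): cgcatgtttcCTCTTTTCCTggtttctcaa
EIF3K (chr19:38619178-38619207, plus strand): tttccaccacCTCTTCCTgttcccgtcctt
EIF3M (chr11:32583821-32583850, plus strand): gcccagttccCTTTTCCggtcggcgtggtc

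For contrast, the same window is shown in lower case for factors with another first base, EIF1, which rose, and 5 that fell. EIF1 and EIF4EBP2 do hold a C and pyrimidine run that begins within 5 bases of the start. EIF2S1, EIF3B, EIF4E and EIF1AD do not. The nearest GENCODE 29 start lies 25, 39 and 234 bases from the RefSeq start of EIF2S1, EIF3B and EIF4EBP2, so the first base of these 3 is uncertain, whereas it lies within 2 bases for the 8 genes above.
EIF1 (chr17:41688875-41688904, plus strand): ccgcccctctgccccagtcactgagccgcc
EIF2S1 (chr14:67360318-67360347, plus strand): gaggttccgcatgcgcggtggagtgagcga
EIF3B (chr7:2354817-2354846, plus strand): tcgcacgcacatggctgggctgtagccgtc
EIF4E (chr4:98929114-98929143, minus strand): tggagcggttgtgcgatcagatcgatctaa
EIF4EBP2 (chr10:70404135-70404164, plus strand): gccttcgcccgcttccggtcgtcgtcgtcg
EIF1AD (chr11:66002138-66002167, minus strand): cagcgccggaagtacggttttcggagggat

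All 13 factors with the C and pyrimidine start (EIF2A, EIF2D, EIF2S3, EIF2S3B, EIF3D, EIF3F, EIF3K, EIF3M, EIF4A2, EIF4B, EEF1A1, EEF1B2 and EEF2) had a higher mean in KO, with a median log2 fold change of 0.24 and a range from 0.07 to 0.57. Of these, 6 were called higher (46.2%) and 0 lower by limma, beside 20.2% and 17.6% of all 924 tested genes with such a start. In 11 of the 13 the KO values lay above all VC values and in 0 below them, where 59.3% of all genes had a gap in either direction. EIF2S3B is a near-identical copy of EIF2S3, so these 2 share reads and are not separate evidence. Of the 36 factors with another start, 6 had a higher mean in KO, and the median was -0.29. Of these 36, 2 were called higher (5.56%) and 13 lower (36.1%), beside 13.6% and 20.6% of all tested genes with another start. The remaining 11 tested factors had no window in the table: EIF2S2, EIF3A, EIF3CL, EIF3E, EIF3G, EIF3H, EIF3L, EIF4EBP1, EEF1D, PABPC1 and PABPC4. They include all 5 tested factors of chromosome 8, so neither start class holds a factor of that chromosome, whose genes had a median of -0.32. Of these 5, EIF4EBP1 was at 0.74, and EIF3E, EIF3H, EEF1D and PABPC1 lay between -0.53 and -0.22. Of all 11, 4 had a higher mean in KO, and the median was -0.13. Among the 11, 2 were called higher (18.2%) and 3 lower (27.3%), beside 13.1% and 19.8% of all genes.

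**Figure D2:**
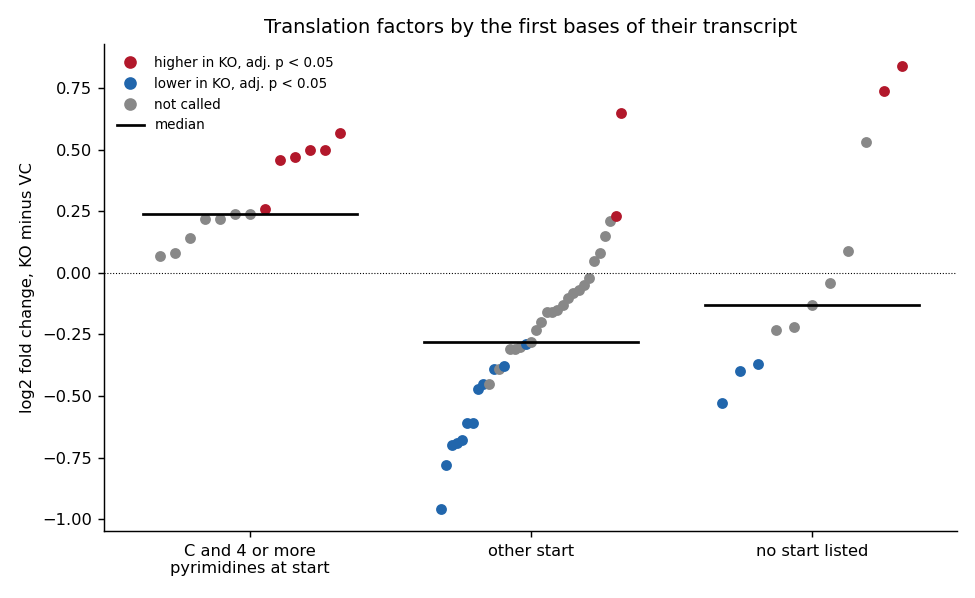
The log2 fold change (KO minus VC) of each factor with 6 values is plotted by the first bases of its transcript in RefSeq, with the median as a bar. The 13 factors with a C and at least 4 pyrimidines at the start all sit above 0. Of the factors with another start, 21 have KO values wholly below VC and 5 wholly above. Over all genes with 6 values, 59.3% had such a gap in either direction.

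Outside the factors, genes with such a start lay on both sides of 0 in near equal numbers. Without the factors and the ribosomal protein genes, 423 of 864 genes with such a start had a higher mean in KO (49%), with a median of -0.01. Over all tested genes, with the factors included, it was 465 of 924 (50.3%) with a median of 0, beside 40.1% of 12517 genes with another start. Of 82 ribosomal protein genes, 47 have such a start, of which 29 had a higher mean, with a median of 0.04. Of these 47, 7 were called higher (14.9%) and 4 lower (8.51%). The split of the factors also depended on the exact base. With the C allowed up to 5 bases to either side of the start, 24 of the 49 factors qualified (49%, beside 28.9% of tested genes). Of these 24, 14 had a higher mean in KO, 7 were called higher (29.2%) and 6 lower (25%), and the median was 0.11. Of the 25 factors without such a run, 5 had a higher mean, 1 was called higher (4%) and 7 lower (28%).

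Of the 6 elongation genes, EEF2 was called higher (16.7%, beside 13.1% of all genes) and EEF2K and EEF1D lower (33.3%, beside 19.8%). EEF2, which moves the ribosome along the mRNA by one codon, had log2 signals of 9.83, 9.65 and 9.82 in VC replicates 1, 2 and 3 and of 10.12, 10.39 and 10.3 in KO. It was 1.41-fold higher in KO, a log2 fold change of 0.5 ± 0.1 (SE, adjusted p = 0.024). EEF2K, the kinase that phosphorylates and inactivates EEF2, had 2.34, 2.33 and 2.3 in VC and 2.05, 2.04 and 2.02 in KO, a fall to 0.818 of VC (adjusted p = 0.0243). The groups of both genes were fully apart, in opposite directions.

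EEF1A1, which delivers aminoacyl-tRNA to the ribosome, had 11.4, 11.39 and 11.19 in VC and 11.57 in each KO library. All KO values were above all VC values, and the log2 fold change of 0.24 did not pass the test (adjusted p = 0.0788). It ranked 5th, 5th and 7th of all genes in the VC libraries and 4th in each KO library, and quantile normalization ties the signals of such abundant genes closely to their rank. The subunits of its exchange factor did not move as one. EEF1B2 had a log2 fold change of 0.22 and EEF1G of 0.15, neither called, while EEF1D was at 6.09, 5.9 and 6.1 in VC and 5.65, 5.66 and 5.66 in KO, a log2 fold change of -0.37 ± 0.083 (SE, adjusted p = 0.0269).

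Of the 6 tested genes grouped under start codon selection, all were called. Of them 2 were higher (33.3%, beside 13.1% of all genes) and 4 lower (66.7%, beside 19.8%). EIF1AD is counted in this group, although the sources used here do not give it a part in start codon selection. EIF1, which keeps the scanning ribosome open until a good start codon is met, rose from 7.19, 7.31 and 7.18 in VC to 7.64, 8.02 and 7.97 in KO, a 1.57-fold difference (log2 0.65 ± 0.12, adjusted p = 0.0198). Its paralogue EIF1B rose by less, from 5.44, 5.48 and 5.39 to 5.65, 5.71 and 5.65 (log2 0.23, adjusted p = 0.0489). EIF5, the GTPase activator of eIF2, fell from 6.54, 6.65 and 6.56 to 6.19, 6.07 and 6.09 (log2 -0.47, adjusted p = 0.0141). EIF1AX and EIF1AD fell as well, with log2 fold changes of -0.39 and -0.69 and adjusted p of 0.0367 and 0.0451. EIF1AD had 4.44, 4.51 and 4.47 in VC and a wider set of 4.13, 3.41 and 3.83 in KO. EIF1AY, the Y-linked copy of EIF1AX, was called lower on 2 values a group at the bottom of the signal range, lost its call with 1 added to the linear signal (adjusted p = 0.645), and is not described further.

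The subunits of eIF2, which carries the initiator tRNA, also parted. EIF2S1, the alpha subunit on which the stress kinases act, fell from 6.02, 6.13 and 6.02 in VC to 5.52, 5.22 and 5.33 in KO, to 0.617 of VC (log2 -0.7 ± 0.1, adjusted p = 0.0123). EIF2S2, the beta subunit, differed by -0.04 with overlapping groups, and EIF2S3, the gamma subunit, had 5.6, 5.67 and 5.58 in VC and 5.78, 5.91 and 5.88 in KO, a difference of 0.24 that did not pass (adjusted p = 0.0531). EIF2A, an alternative carrier of initiator tRNA, rose from 5.12, 5.21 and 5.1 to 5.35, 5.77 and 5.72 (log2 0.47, adjusted p = 0.0474). EIF2D, which acts in ribosome recycling, rose by 0.26 on the log2 scale (adjusted p = 0.0431). Of the 5 genes of eIF2B, the exchange factor that recharges eIF2 with GTP, 0 were called by limma, beside 32.9% of all genes. Of them 1 had an unadjusted p under 0.05, EIF2B5 at a log2 fold change of -0.3, and the other 4 lay between -0.16 and 0.08.

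Of the 14 genes of the eIF3 complex, the large scaffold on the small ribosomal subunit, 28.6% were called, beside 32.9% of all genes. They were 2 factors that rose (14.3%, beside 13.1%) and 2 that fell (14.3%, beside 19.8%). EIF3L rose from 6.39, 6.41 and 6.42 in VC to 7.09, 7.37 and 7.27 in KO, 1.78-fold (log2 0.84 ± 0.093, adjusted p = 0.00891). EIF3D, a subunit that can bind the cap itself, rose from 7.28, 7.31 and 7.3 to 7.82, 7.88 and 7.9, 1.48-fold (log2 0.57 ± 0.063, adjusted p = 0.00891). EIF3B, the scaffold of the mobile module, fell from 7.03, 6.96 and 7.03 to 6.5, 6.13 and 6.34, to 0.623 of VC (log2 -0.68 ± 0.11, adjusted p = 0.0149). EIF3A, the largest subunit, fell to 0.76 of VC (adjusted p = 0.0332). The other 10 eIF3 genes were not called, and 9 of them lay between -0.23 and 0.21.

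As a description of subunits that went opposite ways, the log2 signal of EIF3D minus that of EIF3B was between 0.25 and 0.36 in VC and between 1.32 and 1.75 in KO, and that of EIF3L minus EIF3A was between -0.49 and -0.4 in VC and between 0.5 and 1.07 in KO. These 2 pairs were chosen after their values were seen, and their shifts, 1.25 and 1.23, only add the changes of the genes above. EIF3CL is a near-identical copy of EIF3C, and its values, from 1.03 to 1.8 in VC and from 1.32 to 2.9 in KO, may hold reads of the other gene.

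At the cap, the eIF4G scaffolds fell together. EIF4G1, the main scaffold of eIF4F, had 7.8, 7.7 and 7.8 in VC and 7.33, 6.95 and 7.19 in KO, a fall to 0.656 of VC (log2 -0.61 ± 0.12, adjusted p = 0.0202). EIF4G3 fell by the same amount, from 4.19, 4.19 and 4.23 to 3.79, 3.42 and 3.57 (adjusted p = 0.0175). EIF4G2, a related protein that does not bind eIF4E, fell most, from 8.89, 8.94 and 8.94 to 8.31, 7.96 and 8.16, to 0.583 of VC (log2 -0.78 ± 0.11, adjusted p = 0.0114). In all 3 scaffolds KO replicate 2 was the lowest library and KO replicate 1 the nearest to VC.

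EIF4E, the cap-binding subunit, fell from 3.22, 3.36 and 3.11 to 2.99, 2.64 and 2.72 (log2 -0.45 ± 0.13, adjusted p = 0.0455), without overlap. EIF4E2, a paralogue that mostly acts in repression, differed by -0.13 and EIF4E3 by -0.39, neither called. The helicase paralogues went separate ways. EIF4A1, the main helicase, had 9.79, 9.81 and 9.71 in VC and 9.76, 9.65 and 9.67 in KO, overlapping groups with a difference of -0.08, whereas EIF4A2 rose from 7.13, 7.2 and 7.1 to 7.48, 7.76 and 7.55 (log2 0.46 ± 0.098, adjusted p = 0.0252). EIF4B, the cofactor that stimulates the helicase, rose from 7.46, 7.47 and 7.5 to 7.74, 8.15 and 8.05 (log2 0.5 ± 0.12, adjusted p = 0.0332). EIF4H, its smaller relative, and EIF4A3, the helicase of the exon junction complex, were at -0.15 and -0.28 and were not called.

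The eIF4E inhibitors showed the widest split. EIF4EBP1 rose from 7.02, 6.82 and 7.01 in VC to 7.55, 7.89 and 7.62 in KO, 1.67-fold (log2 0.74 ± 0.12, adjusted p = 0.015). EIF4EBP2 fell from 5.01, 5.08 and 5.07 to 4.5, 3.68 and 4.08, to 0.513 of VC (log2 -0.96 ± 0.21, adjusted p = 0.0275). The log2 signal of EIF4EBP1 minus that of EIF4EBP2 was between 1.74 and 2.01 in VC and between 3.05 and 4.21 in KO, a shift of 1.7. KO replicate 2 was the extreme library for both genes, highest for EIF4EBP1 and lowest for EIF4EBP2. EIF4ENIF1, which carries eIF4E into the nucleus, differed by -0.02.

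**Figure D3:**
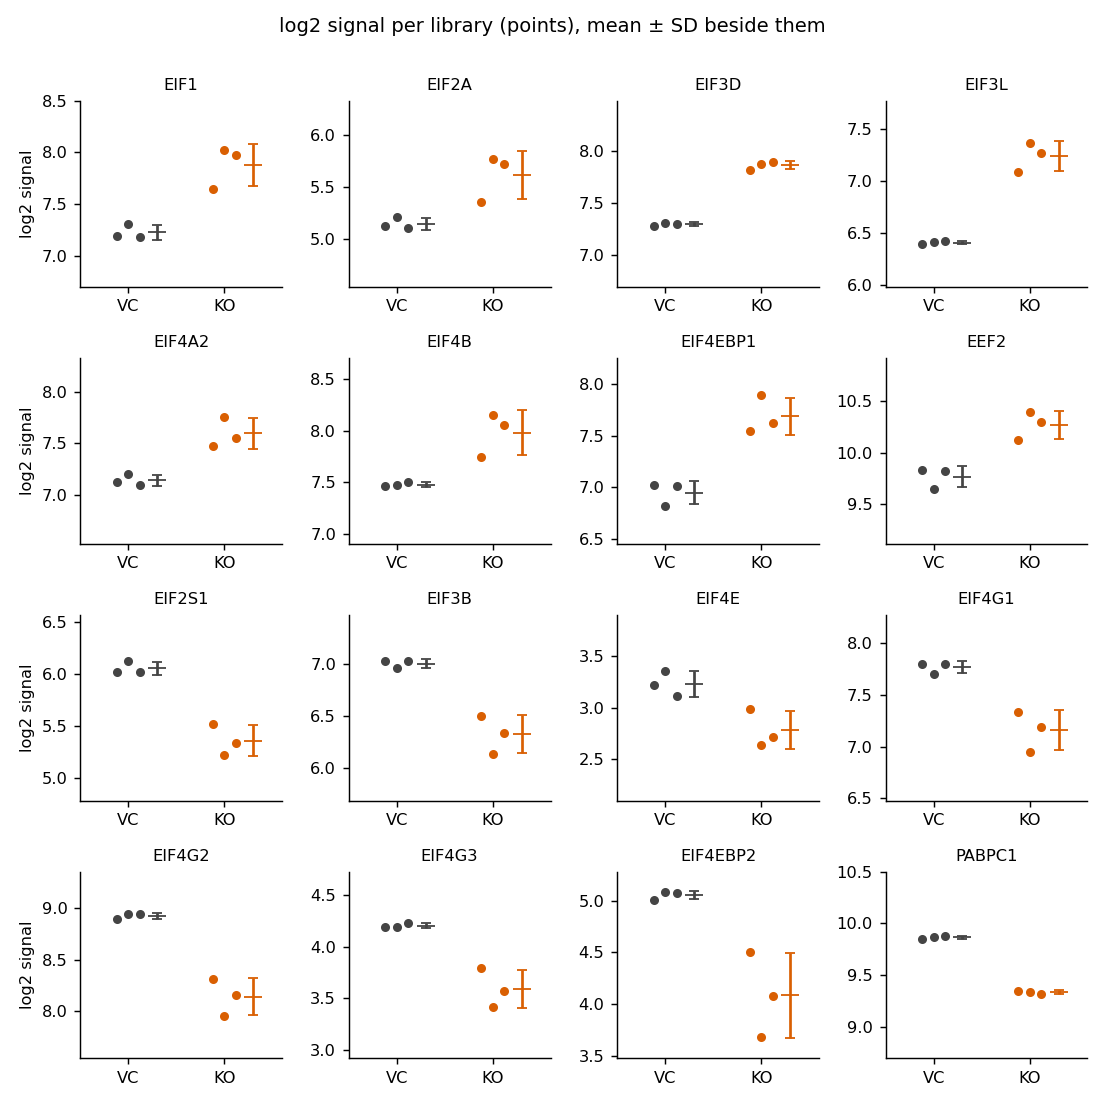
The log2 signal of 16 called factors is shown per library (points, left to right replicates 1, 2 and 3) with the mean and SD beside them, VC in grey and KO in orange, all panels spanning the same number of log2 units. The 8 upper panels have KO above VC, the 8 lower panels KO below VC, and PABPC1 has the least spread in KO.

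At the other end of the mRNA, PABPC1, the main poly(A)-binding protein, had 9.85, 9.87 and 9.88 in VC and 9.35, 9.34 and 9.32 in KO, a fall to 0.691 of VC (log2 -0.53 ± 0.061, adjusted p = 0.00923). The SD was 0.0178 in VC and 0.0169 in KO, so the groups were far apart against their spread. The PABPC1 mRNA is known to carry a TOP motif, but no start window was listed for it, so it is not among the 13 factors above. Its direction was opposite to their higher means, and the median of its chromosome, 8, was -0.32. The part of the start in these values was not tested. PABPC4, its paralogue, differed by -0.13 (adjusted p = 0.139), and the PABPC1 minus PABPC4 difference in log2 signal was 2.68 ± 0.015 in VC and 2.29 ± 0.023 in KO (SD, n = 3, exact permutation p = 0.1, the smallest possible). The PABP partners PAIP1, which promotes translation, and PAIP2, which inhibits it, were at -0.16 and -0.1 and were not called.

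For subunit joining and the late steps, EIF6, which keeps the large ribosomal subunit from joining early, fell from 7.39, 7.27 and 7.39 to 7.03, 6.89 and 7 (log2 -0.38, adjusted p = 0.0237), and EIF5B, the joining GTPase, was at -0.31 without passing. EIF5A, the hypusine-bearing factor that relieves stalled ribosomes, had 8.54, 8.45 and 8.55 in VC and 8.46, 8.04 and 8.13 in KO. KO replicate 1 lay within the VC range, and the difference of -0.31 was not called. EIF5A2 had 0.25, 0.65 and 0.21 in VC and 0.38, 0.12 and 0.03 in KO, also overlapping. EIF5AL1, a near-identical copy of EIF5A, cannot be told from it.

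Over the 9 pairs of paralogues for which the difference in log2 signal was tested, 6 gave an exact permutation p of 0.1, the smallest that 3 against 3 allow two-sided, which is 0.15 after Benjamini-Hochberg adjustment over the 9. EIF4A1 minus EIF4A2 fell by 0.53 and EIF1 minus EIF1B gained 0.42, while EIF4G1 minus EIF4G3 was 3.56 ± 0.056 in VC and 3.57 ± 0.053 in KO (SD, n = 3, exact permutation p = 0.9).

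Several of these genes lie on chromosomes whose genes moved as a group. The median log2 fold change was 0.29 over 447 tested genes of chromosome 22, where 25.7% of genes had a lower mean in KO, against -0.32 on chromosome 8, -0.39 on chromosome 14 and -0.25 on chromosome 20. On the other chromosomes the medians lay between -0.21 and -0.05. EIF3L and EIF3D, both of chromosome 22, exceeded their chromosome's median by 0.54 and 0.28, while EIF4ENIF1 on the same chromosome lay 0.31 below it. EIF2S1 was 0.31 below the median of chromosome 14 and EIF5 0.08 below it.

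On chromosome 8, PABPC1 was 0.21 below the chromosome's median and EEF1D 0.06 below it, EIF3E and EIF3H were 0.09 and 0.1 above it, and EIF4EBP1 was 1.06 above it. Of the 10 tested factors on chromosomes 8, 14 and 20, 1 was called higher and 5 lower, beside 8.77% and 38.7% of the 1688 genes there. Of the 50 others, 9 were called higher (18%) and 11 lower (22%), beside 13.9% and 18.4% of the 15979 genes on other chromosomes. The part of copy number in these values was not tested.

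**Figure D4:**
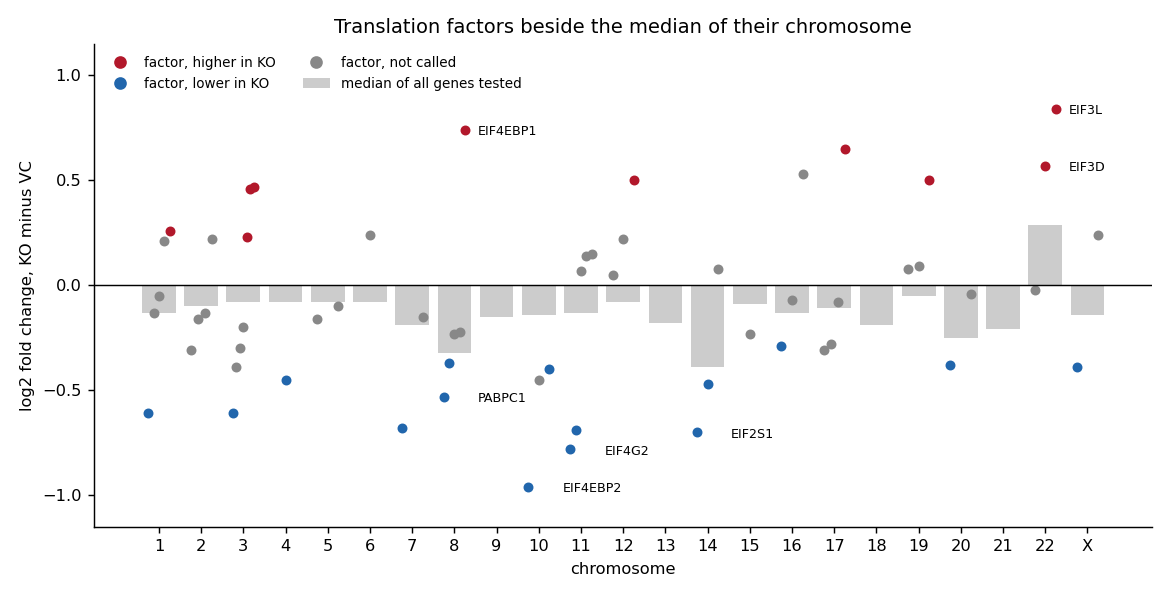
Points are the log2 fold changes (KO minus VC) of the factors with 6 values, placed on their chromosome, and grey bars are the median of all genes tested there. Chromosome 22 has a median above 0 and carries EIF3L and EIF3D, and EIF4EBP1 stands 1.06 above the median of chromosome 8.

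Transcript length moved with direction too. The longest coding transcript of the 10 factors called higher had a median of 2176 bases and that of the 16 called lower 4456 bases (GENCODE 29). With 14178 coding genes cut by length into 4 equal groups from shortest to longest, the median log2 fold change went from -0.03 through -0.09 and -0.14 to -0.2, and for the factors in those groups from 0.09 through -0.09 and -0.17 to -0.4. The 13 factors with a C and pyrimidine start had a median of 2198 bases and the 36 with another start 2971. The part of length or RNA quality in the calls was not tested.

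The wider pathway was read from a list of 62 further genes, of which 61 were tested. Of these, 28 were called by limma (45.9%), 10 higher (16.4%) and 18 lower (29.5%), with a median log2 fold change of -0.18. The shares over all genes were 32.9%, 13.1% and 19.8%. Of the 8 genes that control eIF2 alpha, 4 were called higher (50%, beside 13.1% of all genes) and 2 lower (25%, beside 19.8%). DNAJC3, an inhibitor of eIF2 alpha kinases, rose from 2.36, 2.44 and 2.38 in VC to 3.37, 4.22 and 4.05 in KO, 2.81-fold (adjusted p = 0.0137). PPP1R15A, the phosphatase subunit that removes the phosphate from eIF2 alpha, rose from 5.17, 5.14 and 5.19 to 6.45, 6.91 and 6.5, 2.74-fold (adjusted p = 0.00789).

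Among the 4 eIF2 alpha kinases, EIF2AK3, the kinase of the endoplasmic reticulum, rose by 0.7 on the log2 scale, EIF2AK1 and EIF2AK4, the heme- and amino acid-responsive kinases, fell by 0.55 and 0.51, and EIF2AK2, the kinase activated by double-stranded RNA, was at -0.29 and not called. IMPACT, an inhibitor of EIF2AK4, rose by 0.6.

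In the TORC1 and MNK group, 1 of 14 genes was called higher (7.14%, beside 13.1% of all genes) and 5 lower (35.7%, beside 19.8%). PDCD4, an inhibitor of the eIF4A helicase, rose from 3.94, 4 and 3.9 to 4.91, 5.17 and 5.01, 2.12-fold (adjusted p = 0.00665). MTOR, TSC1, TSC2, RPS6 and LARP1, the last a binder of TOP mRNAs, were called lower, with log2 fold changes from -0.46 to -0.26. EEF1A2, the second isoform of EEF1A, fell from 7.72, 7.49 and 7.67 to 6.18, 6.45 and 6.35, to 0.406 of VC (adjusted p = 0.0064), on chromosome 20. EEFSEC, the elongation factor for selenocysteine, fell to 0.608 of VC (adjusted p = 0.0128), and PABPC3 to 0.53 (adjusted p = 0.0415), at low signals and with a sequence close to that of PABPC1. DHPS, which makes the hypusine of EIF5A, rose by 0.46.

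In termination and recycling, 1 of 8 genes was called higher (12.5%, beside 13.1% of all genes) and 1 lower (12.5%, beside 19.8%). PELO, which frees stalled ribosomes, rose by 0.34 on the log2 scale, and GSPT1, the GTPase of termination, fell by 0.46. The other 6 genes were not called, with values from -0.31 to -0.18. Of the 14 further cap, helicase and tail factors tested, 1 rose (7.14%, beside 13.1% of all genes), CYFIP1 at 0.29. Of them 7 fell (50%, beside 19.8% of all genes), with the helicase DDX3X at -0.57 and the nuclear poly(A)-binding protein PABPN1 at -0.41.

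**Figure D5:**
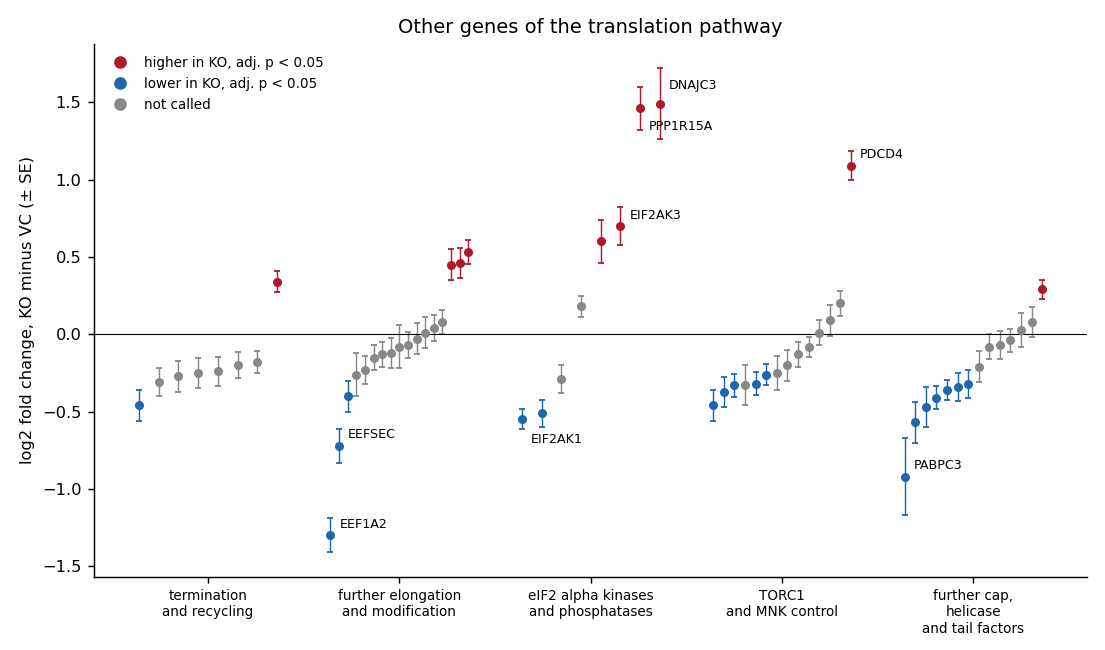
Each point is the log2 fold change (KO minus VC, with its standard error) of 1 of 61 further translation genes, in 5 groups along the horizontal axis. DNAJC3, PPP1R15A and PDCD4 stand highest, and EEF1A2, PABPC3 and EEFSEC lowest.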

How the data were processed

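RNA of 3 VC and 3 KO libraries of 143B cells was sequenced by the authors. The labels name a stranded mRNA kit and the methods total RNA on an Illumina NextSeq. Per the labels' processing notes CASAVA, STAR and Partek were used with build GRCh38.p13, and the methods name CLC Genomics and Partek Genomics Suite. Versions, annotation, counting and the linear unit are not given in the sources used here. The authors deposited log2 signals, quantile-normalized between libraries. Empty cells were treated as missing. The depth is unknown, so no counting interval could be given.

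No further normalization was applied. The signals were fitted with limma 3.58.1 in R 4.3.3 (KO minus VC, empirical Bayes without trend). Genes needed 2 values a group. Two-sided p-values were Benjamini-Hochberg adjusted over 19306 genes and called under 0.05. The fit was tested on simulated data. Replicates are separate RNA samples of clonal cells, so p-values measure the spread between these samples. Fold changes are ratios of quantile-normalized signals.

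The factors, the gene lists, the pairs and the start motif were chosen with earlier results of these data known, and no list was tested as a set. Values per library are given for the 8 called factors that rose most, for the 8 that fell most except EIF1AY, and for 9 core factors. They are also given for the paralogue groups, except EIF3C, EIF3CL, EIF4EBP3 and PABPC4. From the list of 62 genes the 3 largest called changes in each direction are given likewise, with EEFSEC and PABPC3 as ratios alone. Other genes were added after their values were seen. Chromosomes came from a RefSeq table by symbol and start windows from RefSeq (GRCh38.p14), where the start of 9 of 14 genes printed is also a GENCODE 29 start and the other 5 lie 1 to 234 bases from one. A window holds 250 bases before the start and 50 from it. Alternatives changed the genes tested, the scaling, the moderation, the block and the libraries.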

Additional observations from a re-analysis of the deposited data

How the results depend on the processing

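The directions of the 26 called factors held in every alternative run that tested them, and the count of calls did not. Against 26 (10 higher, 16 lower), 40 were called with 1 added to the linear signal, 25 of them lower. Without variance moderation 2442 genes were called lower in place of 3828. A paired fit with the replicate block, although the numbers did not pair the samples (correlations of same-numbered deviations 0.023, 0.0051 and -0.0074, with 3 of 6 libraries correlating best with their own number), called 2 factors (EIF3D and EIF3L, both higher, 0 lower), 6 of the pathway list in place of 28, and 1533 genes, 594 higher and 939 lower. It leaves fewer degrees of freedom. With each library left out in turn, 3 to 31 factors were called, 2 to 11 higher and 1 to 20 lower, with 4 to 35 of the pathway list and 1223 to 8669 genes, 654 to 2940 higher and 569 to 5729 lower. Each of these fits has 5 libraries, and the highest counts came without KO replicate 1.

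The factors' median log2 fold change, -0.13, was -0.099 in the upper 50% of signals, -0.048 after median centring, -0.071 after a further quantile normalization and -0.102 with 1 added, and -0.13 to -0.081 with a library left out. Median centring moved the median of all genes to -0.042 and 1 added to -0.023. Uncalled factors changed sign: after median centring EIF2B3 (0.029), EIF3C (0.01), EIF4A1 (0.006), EIF2S2 (0.047) and EIF4ENIF1 (0.061), after quantile normalization EIF4ENIF1 (0.057), without VC replicate 2 EIF2S2 (0.025, from -0.07 to 0.025 over the libraries left out), and without KO replicate 2 EIF3F (-0.019, from -0.019 to 0.16) and EIF4ENIF1 (0.09). EIF3F was the 1 exception among the 13 factors with a C and pyrimidine start, whose means were otherwise higher in KO in all alternatives. Reads per library are unknown, so what depth limits could not be set.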
